A study of Mus musculus with 2 samples.

Results

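The miRNAs described here are those encoded between the 3′ end of the noncoding gene Rian and the end of Mirg in the imprinted Dlk1-Dio3 domain of the mouse. Members were chosen by name, not by level: every listed mature arm of 39 named miRNAs, from miR-379 to miR-3072, was taken. A row was used for 34 of these names, which gave 55 of the 628 listed mature miRNAs, 22 of them 5p arms and 33 of them 3p arms. miR-299b, miR-412 and miR-654 were not analysed here, and the older names miR-299 and miR-496 stand as miR-299a and miR-496a.

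The cells were fibro-adipogenic progenitors (FAPs), the mesenchymal cells of skeletal muscle that can give rise to adipocytes and fibroblasts. They had been sorted as Sca1+ cells from muscle of C57Bl/6 wild-type mice and grown to about 80% confluence in DMEM with 20% FBS, 10% HS and 5 ng/ml FGF. One culture sample then spent 24 h in basal medium (BM, DMEM with 10% HS) and another 24 h in adipogenic differentiation medium (ADM), whose recipe was not given in the sources used here. Each medium gave 1 small RNA library, so the BM and ADM libraries differ without a replicate check, no p-value was computed, and every difference below is between these libraries. For the age of the mice, any pooling of animals and any shared source of the cultures, nothing was given in the sources used here.

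In the Dlk1-Dio3 domain, the long noncoding RNAs Meg3, Rian and Mirg and the miRNAs are made from the maternal chromosome, whereas the protein-coding genes Dlk1, Rtl1 and Dio3 are expressed from the paternal one. The hairpins downstream of Rian form one of the largest miRNA arrays of mammals and are thought to be cut from long polycistronic transcripts. The array is best known from brain, placenta and developing tissues; mice that lack it have trouble adapting their metabolism at birth, and the transcription factor Mef2a drives the domain in muscle cells. Dlk1, also called preadipocyte factor, restrains adipocyte formation.

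On mm10 (GRCm38) the hairpins with a listed arm lie on the plus strand within chr12:109709060-109747960, a span of 38.9 kb. Of these 34 hairpins, 22 lie before the annotated start of Mirg (chr12:109729764-109749460, GENCODE M21), 8 overlap an exon of Mirg and 4 lie in its introns. The last base of Rian is at 109661716, upstream of all of them.

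Levels are given in RPM, on which 1% of library reads is 10000 RPM. Library reads here are those that the deposited percents refer to, of which the listed miRNAs make up 99.9%. The 10 arms with a mean of at least 100 RPM over both libraries carry most of the signal described below, and their mature sequences are shown first. Capitals mark the seed, bases 2 to 8 from the 5′ end, which pairs with target mRNAs. Sequences are from RefSeq (GRCm38.p6), which matched 51 of the 55 arms by name; miR-376c-3p, miR-485-5p, miR-487b-3p and miR-539-3p are named only.
miR-541-5p: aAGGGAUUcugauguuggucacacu
miR-411-5p: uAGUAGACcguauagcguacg
miR-409-3p: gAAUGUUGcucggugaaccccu
miR-410-3p: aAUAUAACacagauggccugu
miR-300-3p: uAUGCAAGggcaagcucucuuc
miR-381-3p: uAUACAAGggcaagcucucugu
miR-409-5p: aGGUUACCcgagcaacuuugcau
miR-299a-5p: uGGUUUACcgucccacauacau
miR-134-5p: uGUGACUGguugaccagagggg
miR-494-3p: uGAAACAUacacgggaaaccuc
No seed is shared among these 10. Across the 51 arms with a sequence there were 50 different seeds, so the array is not a seed family: nearly every arm has its own. Of the 51 arms, 21 begin with A and 20 with U, 80.4% together, beside 67.2% of the 516 listed miRNAs with a sequence. Median GC content was 45.5% for the cluster and 47.8% for all 516, and median length was 22 bases for both.

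The cluster took 15088 of 755193 BM reads, or 1.998% (95% exact Clopper-Pearson interval 1.97 to 2.03%), and 7030 of 790617 ADM reads, or 0.889% (0.869 to 0.910%). Its summed share was 2.25-fold lower in the ADM library (exact counting interval 2.18 to 2.31). As the reads carry no molecular identifiers and so need not stand for separate molecules, all intervals here cover counting error only. In bulk libraries, fewer cells that express a miRNA and less of it per cell cannot be told apart. Levels are compared between libraries for the same miRNA; levels of different miRNAs also depend on how well each ligates to the adapters, and their order is that of reads.

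Level minimum and call were set on RPM: an arm was called lower or higher when its mean was at least 10 RPM and its log2((ADM + 1)/(BM + 1)) was at least 1 from 0, which is a 2-fold difference. Of the 55 arms, 41 from 30 hairpins passed the minimum. Of these, 29 were lower in ADM and 0 were higher, whereas of all listed miRNAs above the minimum 20.5% were lower and 10.7% higher. The other 12 cluster arms were less than 2-fold apart. The counting interval of the ratio excluded 1 for 28 of the 29 lower arms, the exception being miR-377-5p with 15 and 7 reads. The median log2 ratio of the 41 arms was -1.46 (quartiles -1.76 and -0.83), beside -0.02 for all listed miRNAs above it and 0.13 for the 279 outside the Dlk1-Dio3 domain. These arms share a genomic source and are not independent observations.

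**Figure D1:**
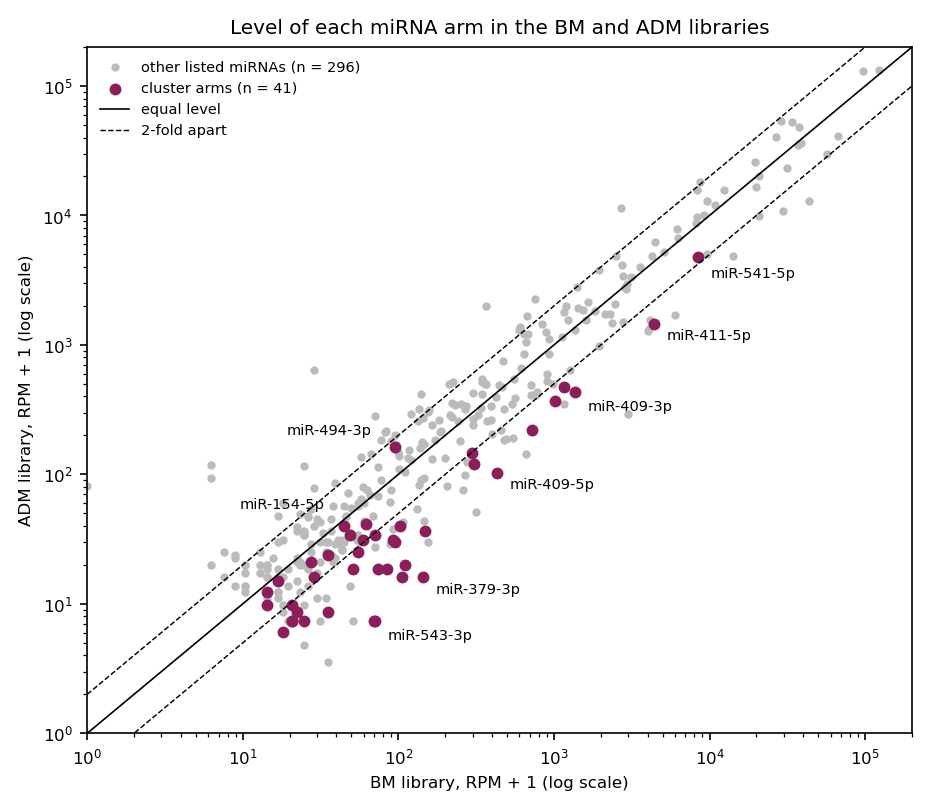
Level of each miRNA with a mean of at least 10 RPM in the BM library (x axis, RPM + 1) and the ADM library (y axis, RPM + 1), both on log scales, with 41 cluster arms in purple and 296 other miRNAs in grey; the solid line marks equal levels and the dashed lines a 2-fold difference. Purple points lie mostly under the lower dashed line, miR-541-5p lies between the lines, and miR-494-3p is the 1 purple point above the solid line.

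miR-541-5p was the most abundant member in both libraries, with 6345 BM reads and 3798 ADM reads, or 8402 and 4804 RPM. It was 1.75-fold lower in ADM (1.68 to 1.82), short of the 2-fold limit. Its share of the cluster's own reads was therefore larger in ADM, 54.0% (52.9 to 55.2%), than in BM, 42.1% (41.3 to 42.8%). Without it, the remaining 54 arms held a share of 1.16% in BM against 0.409% in ADM and were 2.83-fold lower (2.72 to 2.95). Its hairpin, chr12:109742409-109742498 in an intron of Mirg, gave almost nothing from the other arm: miR-541-3p had no BM read and 1 ADM read. In the hairpin below, capitals mark both arms.
miR-541 hairpin: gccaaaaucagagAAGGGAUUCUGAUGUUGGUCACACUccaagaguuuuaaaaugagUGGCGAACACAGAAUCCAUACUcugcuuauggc

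miR-411-5p came next with 3316 BM reads and 1150 ADM reads, 4391 and 1455 RPM. It was 3.02-fold lower (2.82 to 3.23). Its share of the cluster reads was smaller in ADM, 16.4% (15.5 to 17.2%), than in BM, 21.98% (21.3 to 22.6%).

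The following 4 arms had between 720.3 and 1367 RPM in BM. miR-409-3p, at 1367 RPM in BM and 433.8 RPM in ADM, was 3.15-fold lower (2.78 to 3.57). miR-410-3p, near the far end of the array, had 1164 and 476 RPM and was 2.45-fold lower (2.17 to 2.77). miR-300-3p had 1022 and 367 RPM, a 2.79-fold difference (2.43 to 3.20). miR-381-3p had 720.3 and 220.1 RPM, a 3.27-fold difference (2.75 to 3.91). All 4 were thus lower in ADM by more than counting error, and the interval of miR-410-3p lay below that of miR-409-3p.

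miR-409-5p, the lesser arm of its hairpin, had 428 RPM in BM against 102 RPM in ADM and was 4.17-fold lower (3.26 to 5.39). miR-134-5p, known from rat hippocampal neurons as a brake on dendritic spine size through Limk1, had 232 and 95 reads, a 2.56-fold difference (2.01 to 3.28). miR-299a-5p had 224 and 115 reads and was just past the limit, with a log2 ratio of -1.02. It was short of it with a pseudocount of 10 RPM (-0.98) and with median-of-ratios scaling (-0.96). The first 9 arms by level thus had ratios below 1 whose intervals excluded 1, and miR-541-5p alone was short of 2-fold as called here.

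miR-494-3p was the one arm above the minimum that was higher in ADM. Its level was 94.0 RPM in BM (71 reads) against 161 RPM in ADM, a ratio of 1.71 (1.27 to 2.32) and a log2 ratio of 0.77, which is less than 2-fold. Relative to all other cluster reads its ratio was 3.89-fold higher (2.88 to 5.29), a comparison within each library that does not depend on library scaling. The arm shares no seed with any other listed miRNA that has a sequence, and the other arm of its hairpin was not analysed here. The hairpin is shown with the measured arm in capitals, at chr12:109715318-109715402.
miR-494 hairpin: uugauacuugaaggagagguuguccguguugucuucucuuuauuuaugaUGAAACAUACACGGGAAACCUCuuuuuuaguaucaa

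**Figure D2:**
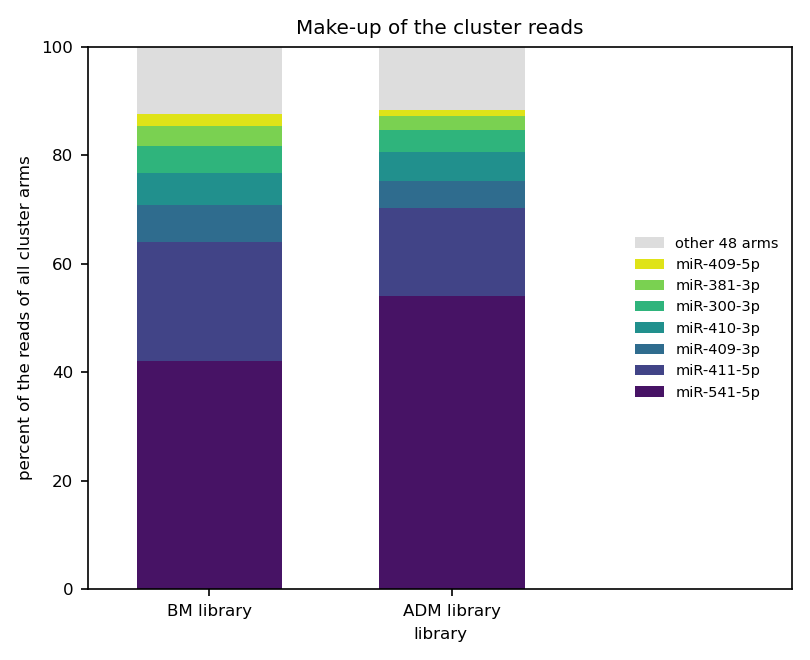
Make-up of the cluster reads in each library: the y axis is the percent of the reads of all 55 cluster arms, the bars are the BM and ADM libraries, and colours mark the 7 most abundant arms with the other 48 in grey. miR-541-5p fills 42.1% of the BM bar and 54.0% of the ADM bar, and miR-411-5p 21.98% and 16.4%.

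The members did not all differ by the same factor. Each of the 41 arms was set against the summed reads of all other cluster arms, with no adjustment for the number of intervals. The exact counting interval of that relative ratio excluded 1 for 16 arms: 3 were relatively higher in ADM (miR-541-5p, miR-494-3p and miR-154-5p) and 13 relatively lower. As miR-541-5p dominates the sum, the comparison was repeated without it; 7 of 40 arms were then relatively higher and 7 relatively lower. The relatively higher ones were miR-494-3p, miR-154-5p, miR-758-3p, miR-382-5p, miR-376c-3p, miR-299a-5p and miR-410-3p. The relatively lower ones were miR-543-3p, miR-667-3p, miR-379-3p, miR-376b-3p, miR-485-5p, miR-409-5p and miR-411-5p.

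The 5 lowest ratios all rest on few ADM reads. miR-543-3p had 53 BM reads and 5 ADM reads, an 11.1-fold difference (4.47 to 35.6; log2 ratio -3.28). miR-667-3p had 52 and 5 reads (-3.25) and miR-379-3p had 108 and 12 (-3.15). miR-376b-3p had 79 and 12 reads (-2.71) and miR-485-5p had 82 and 15 (-2.46). Every one of these intervals lies wholly below a ratio of 1, the highest upper bound being that of miR-485-5p at 0.305.

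At the other end, besides miR-494-3p, stood arms whose interval held 1. miR-154-5p had 33 BM reads and 31 ADM reads, a log2 ratio of -0.15, and was 2.02-fold higher relative to the other cluster reads (1.20 to 3.41). miR-495-3p had 12 and 11 reads (-0.18), miR-323-3p 10 and 9 (-0.20) and miR-758-3p 20 and 16 (-0.37). At 9 to 12 reads per library, a 2-fold difference in either direction was not detectable for miR-323-3p and miR-495-3p, whose ratio intervals run from 0.309 to 2.35 and from 0.350 to 2.17.

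The rest of the 41 arms lay between these ends. miR-485-3p (63 and 14 reads, -2.17), miR-668-3p (26 and 6, -2.04), miR-411-3p (111 and 28, -2.02), miR-1193-3p (55 and 14, -1.98) and miR-376a-5p (18 and 5, -1.76) were lower. Edited miR-376a-5p is known in mouse for repression of Prps1, but base changes cannot be seen in these values. Between -1.66 and -1.02 stood miR-329-5p (71 and 23 reads), miR-377-3p (13 and 4), miR-299a-3p (69 and 24), miR-329-3p and miR-496a-3p (15 and 5 each), miR-379-5p (38 and 14), miR-376a-3p (16 and 6), miR-380-3p (77 and 31), miR-369-3p (41 and 19), miR-377-5p and miR-666-5p (53 and 26). miR-369-3p, known in human cells for binding the AU-rich element of TNF mRNA, had a log2 ratio of -1.14.

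Short of 2-fold were miR-369-5p (44 and 24 reads, -0.92), miR-376b-5p (21 and 12, -0.83), miR-376c-3p (46 and 32, -0.58), miR-487b-3p (26 and 18, -0.58), miR-666-3p (10 and 7, -0.53) and miR-382-5p (36 and 26, -0.52). Of these 6, miR-369-5p alone had an interval that excluded 1 (1.14 to 3.30-fold lower).

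The 14 arms under the minimum had at most 4 reads in either library. They were miR-667-5p with 4 BM reads and 1 ADM read, miR-679-3p with 3 and 1, miR-134-3p with 2 and 3, miR-543-5p with 2 and 2, miR-495-5p and miR-1197-3p with 2 and 1 each, miR-539-5p with 2 and 0, miR-3072-3p with 0 and 2, and miR-541-3p with 0 and 1. miR-154-3p, miR-380-5p and miR-539-3p had 1 read in each library, and miR-410-5p and miR-3072-5p had 1 and 0. In all they held 22 BM reads and 15 ADM reads, and no comparison was made for them. By a 1-sided 95% limit, unlike the 2-sided intervals elsewhere, a count of 0 allows up to about 3 reads. This is 3.97 RPM in BM and 3.79 RPM in ADM.

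**Figure D3:**
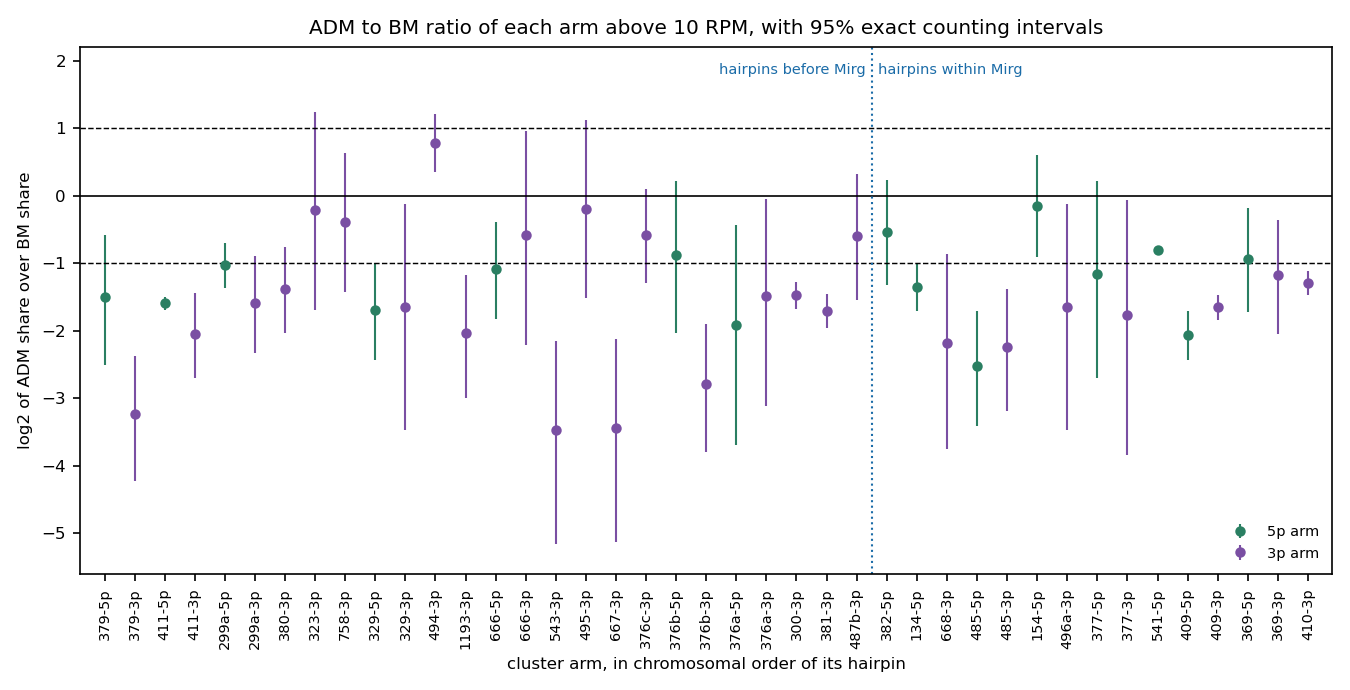
The log2 of the ADM share over the BM share (y axis) for the 41 cluster arms with a mean of at least 10 RPM, in chromosomal order (x axis, names without miR-), with 5p arms in green, 3p arms in purple and 95% exact counting intervals as bars; dashed lines mark 2-fold differences and the dotted line the start of Mirg. Points lie below 0 on both sides of the Mirg start, miR-494-3p alone lies above it, and the widest bars belong to arms with few reads.

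Lower arms occurred all along the array. When the 30 hairpins with an arm above the minimum were split by order into 3 stretches of 10, the median log2 ratio was -1.46 for the 15 arms from miR-379 to miR-666, of which 11 were lower. It was -1.42 for the 12 arms from miR-543 to miR-382, of which 7 were lower, and -1.43 for the 14 arms from miR-134 to miR-410, of which 11 were lower. Of all listed miRNAs above the minimum, 20.5% were lower. Order along the chromosome and the log2 ratio of the 30 hairpins had a Spearman rho of 0.02, a description over hairpins that share both libraries.

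Summed reads of arms before Mirg were 2.84-fold lower (2.70 to 2.98), with 5904 BM reads and 2179 ADM reads. Those of arms within Mirg were 1.98-fold lower (1.91 to 2.05), with 9184 and 4851 reads. Without miR-541-5p the arms within Mirg were 2.82-fold lower (2.63 to 3.03), so the gap between these stretches rested on that arm.

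**Figure D4:**
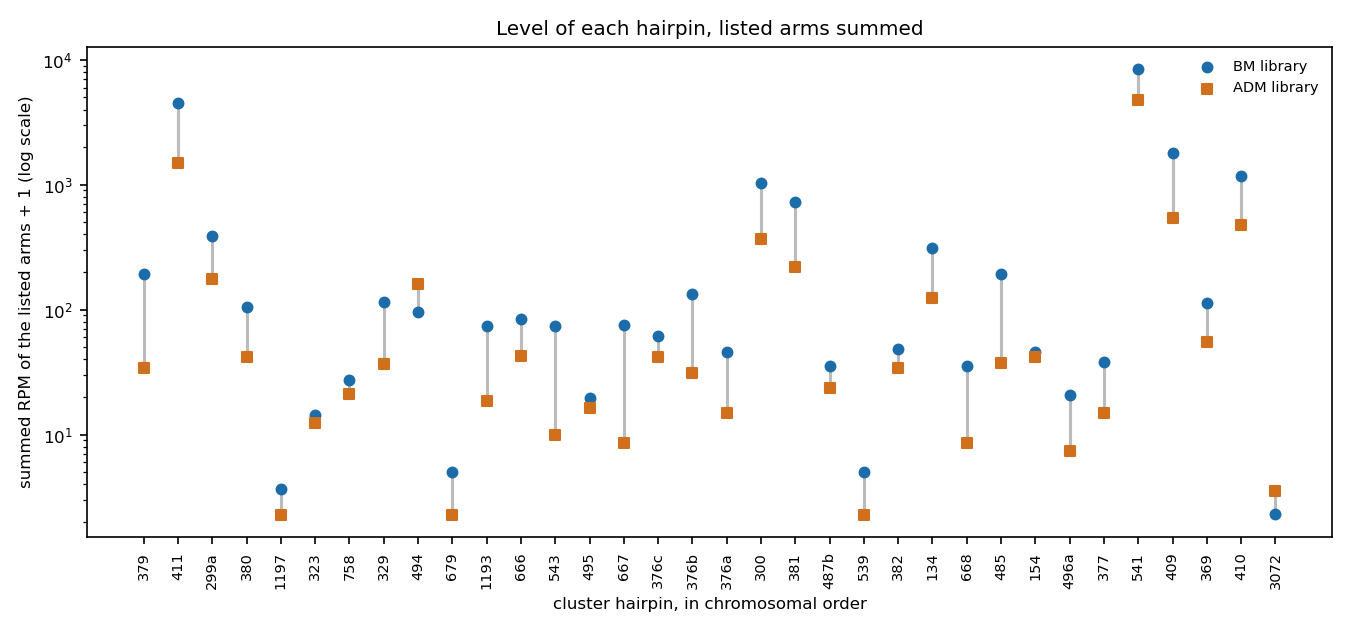
Level of each of the 34 hairpins as the summed RPM of its listed arms + 1 (y axis, log scale) in chromosomal order (x axis, names without miR-), with blue circles for the BM library and orange squares for the ADM library. Levels of neighbouring hairpins differ widely, with miR-541 and miR-411 the highest, and the ADM square lies below the BM circle for all hairpins but miR-494 and miR-3072, the latter with 1 read in BM and 2 in ADM.

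Levels varied far more between hairpins than between libraries. Hairpins side by side could differ greatly: miR-379 summed to 193 RPM in BM and its neighbour miR-411 to 4538 RPM, and miR-541 at 8402 RPM lay next to miR-377 at 37.1 RPM. Summed over arms, 20 of the 30 hairpins above the minimum were lower and 0 higher in ADM, and 29 had a log2 ratio below 0. Arms were not summed by hairpin for the other listed miRNAs, so these counts have no background of their own. Counted by arm, 20.5% of all listed miRNAs above the minimum were lower and 10.7% higher, with a median log2 ratio of -0.02. The mean level of the 41 arms and their log2 ratio had a Spearman rho of -0.20, and GC content of the mature arm and the ratio 0.02 over 38 arms; at these read numbers neither is a finding.

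Several arms resemble each other closely, which bears on how reads can be assigned. Sequences were compared base by base from the 5′ end, without gaps. miR-411-3p and miR-379-3p share a seed and 20 of 22 bases, and differ by C10U and C22U (base of the former, position from the 5′ end, base of the latter). miR-300-3p and miR-381-3p, shown above, share 19 of 22 bases and differ by G4A, U21G and C22U, of which G4A lies in the seed. miR-376b-3p and miR-376a-3p share 18 of 21 bases and differ by A4G, C13A and U20G. miR-543-3p and miR-495-3p share 18 of 22 bases and differ by U6A, U7A, G9A and C10U. miR-758-3p shares 16 of 19 bases with miR-379-3p.
miR-411-3p: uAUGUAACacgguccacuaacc
miR-379-3p: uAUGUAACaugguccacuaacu
miR-758-3p: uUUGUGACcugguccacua
miR-376b-3p: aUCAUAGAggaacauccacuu
miR-376a-3p: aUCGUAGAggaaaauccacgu
miR-543-3p: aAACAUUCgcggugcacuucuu
miR-495-3p: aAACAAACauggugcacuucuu
Adenosine-to-inosine editing, which is read as G, is known in brain at the seed of several array members, among them miR-376 family arms, so an edited copy of one arm can look more like another. The handling of mismatches and of reads that match several arms in mapping was not given in the sources used here, so the split of reads within such pairs is uncertain.

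Ratios were compared within the 6 pairs of arms above the minimum with at most 4 differing bases; the counting interval excluded 1 in 4 of them, without adjustment for 6 intervals. miR-543-3p and miR-495-3p stood furthest apart: the ratio of miR-495-3p was 9.72 times that of miR-543-3p (2.46 to 41.3), and their summed reads, 65 in BM and 16 in ADM, were 4.25-fold lower (2.43 to 7.88). The ratio of miR-411-3p was 2.27 times that of miR-379-3p (1.05 to 5.15); the summed reads of this seed, 40 of them in ADM, were 5.73-fold lower (4.08 to 8.24). miR-758-3p had a ratio 7.20 times that of miR-379-3p (2.70 to 19.2) and 3.17 times that of miR-411-3p (1.34 to 7.36). miR-300-3p and miR-381-3p did not differ beyond counting error, with a relative ratio of 1.17 (0.940 to 1.47), nor did miR-376b-3p and miR-376a-3p, with 0.405 (0.119 to 1.53). Summed, miR-300-3p and miR-381-3p had 1316 and 464 reads and were 2.97-fold lower (2.67 to 3.31).

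Outside the array, 4 seeds were shared with another listed miRNA. The seed of miR-410-3p also occurs in miR-344d-3p, which had 19 and 14 reads, so that miR-410-3p held 97.9% of that seed's BM reads and 96.4% of its ADM reads. The seed of miR-329-3p is that of miR-362-3p, encoded on the X chromosome, which had 23 reads in each library while miR-329-3p had 15 and 5. Members thus held 39.5% of the 38 BM reads of this seed and 17.9% of its 28 ADM reads. No interval was computed for these shares, which rest on few reads. miR-377-5p shares its seed with miR-672-5p (19 and 10 reads), and miR-1193-3p with miR-370-5p (1 and 0), a miRNA from within Rian.

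Both arms of a hairpin are cut from 1 precursor, and the difference between their log2 ratios is free of library scaling apart from the pseudocount of 1 RPM. Both arms passed the minimum in 11 hairpins, and in all 11 both log2 ratios were below 0. Without regard to sign, the arms were a median of 0.43 apart in log2 ratio. For miR-379, the 5p arm had 38 and 14 reads and the 3p arm 108 and 12, a difference of 1.70 (5p minus 3p, 95% counting interval 0.46 to 2.93). The 5p arm made up 26.0% of the hairpin's reads in BM and 53.8% in ADM. For miR-376b, with 21 and 12 reads of 5p and 79 and 12 of 3p, the difference was 1.87 (0.53 to 3.22), and the 5p share was 21% in BM and 50.0% in ADM. The more abundant arm also differed between the libraries for miR-376a, at 16 to 18 BM reads and 5 to 6 ADM reads per arm.

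In both hairpins the 3p arm, which is part of a near-identical pair listed above, was the more strongly lower one, and each rests on 12 reads of it in ADM. Their sequences are given with both arms in capitals, at chr12:109709060-109709125 and chr12:109723458-109723539.
miR-379 hairpin: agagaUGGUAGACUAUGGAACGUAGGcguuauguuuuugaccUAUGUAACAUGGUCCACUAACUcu
miR-376b hairpin: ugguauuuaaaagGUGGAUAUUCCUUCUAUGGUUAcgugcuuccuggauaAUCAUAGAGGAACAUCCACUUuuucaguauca
For miR-409, the hairpin of the 11 with the most reads of its lesser arm, the 5p arm was slightly lower relative to the 3p arm (-0.40, -0.79 to -0.005), with 23.8% of the hairpin's reads in BM and 19.1% in ADM. In the other 8 hairpins the interval of the difference held 0. For miR-411 it ran from -0.18 to 1.04, and the 5p arm held 96.8% of the reads in BM and 97.6% in ADM.

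**Figure D5:**
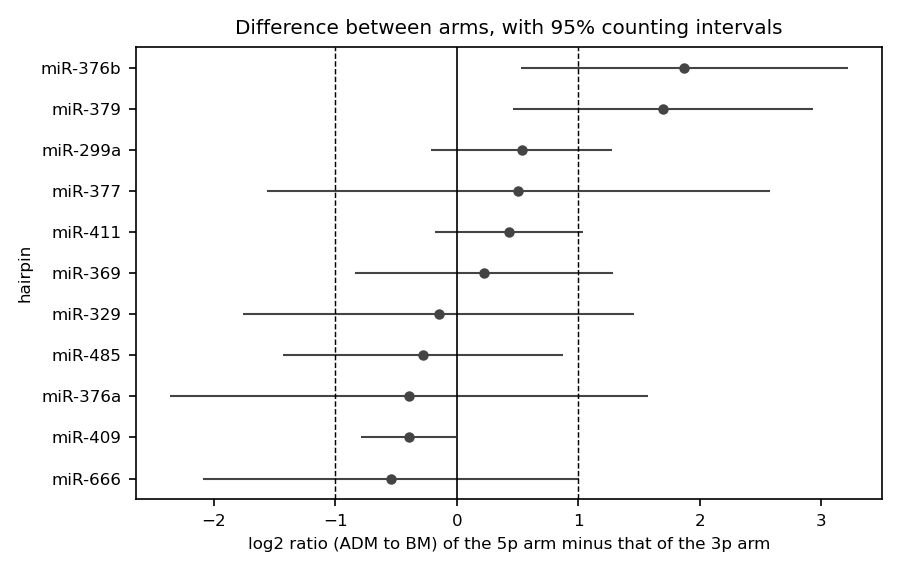
Difference between the log2 ratio (ADM to BM) of the 5p arm and that of the 3p arm (x axis) for the 11 hairpins with both arms above 10 RPM (y axis), with 95% counting intervals as bars and dashed lines at a difference of 1. miR-376b (1.87) and miR-379 (1.70) lie past the dashed line with intervals above 0, and the interval of miR-409 ends just below 0.

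The miRNAs of the same domain that lie closer to Meg3 were lower by a larger factor in summed reads. The 21 arms between Meg3 and Rian, which take in miR-127-3p, had 38492 BM reads and 11974 ADM reads and were 3.37-fold lower (3.30 to 3.44); without miR-127-3p they were 3.14-fold lower (2.98 to 3.32). Set beside these, the array downstream of Rian was 2.25-fold lower, or 2.83-fold without miR-541-5p, and neither interval overlaps those of the stretch between Meg3 and Rian. The counts of arms called lower were 29 of 41 and 13 of 15, with medians of -1.46 and -1.65. For all listed miRNAs above the minimum, 20.5% were lower and the median was -0.02. Both arms above the minimum from within Rian were lower, and the 5 listed arms there summed to a 2.55-fold difference (2.04 to 3.21).

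Lists of miRNAs chosen as markers of FAPs and of other cells differed as follows. The 13 arms of the fibroblast and FAP list summed to 29.4% of the BM library and 34.9% of the ADM library. Most of this was miR-22-3p (12.2% and 13.2%) and miR-21a-5p (9.72% and 13.0%), so the sum does not stand for the other arms. Of the 13 arms 1 was called lower, and 6 had a log2 ratio below 0. Among these were all listed miR-199 and miR-214 arms, from -0.29 for miR-214-3p to -1.05 for miR-199b-5p. The rest were above 0, up to 0.90 for miR-143-3p. Muscle miRNAs differed in the same direction as the array: all 4 arms above the minimum were lower, and the 9 listed arms made up 0.906% of the BM library and 0.202% of the ADM library, with miR-486-5p at 4509 and 1342 reads and miR-133a-3p at 2266 and 231. Among the other muscle miRNAs listed, miR-133b-3p had 25 and 8 reads, miR-206-3p 8 and 1 and miR-1a-3p 4 and 2. miR-499 was not analysed here. The part of muscle cells in the array's difference was not tested. Endothelial miR-126-5p had 61 and 168 reads and miR-126-3p 27 and 35. The 2 haematopoietic arms had 1 and 4 reads in sum, the 4 epithelial arms 20 and 16, and the 6 neural arms 555 and 430, of which 1 of the 3 above the minimum was lower. miR-128-3p had a log2 ratio of -1.37 and miR-218-5p one of 0.56.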

How the data were processed

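Per the labels' protocols, mirVana small RNA was made into TruSeq libraries, cut from a gel at 147 bp and run on a MiSeq. The deposited values came from miRanalyzer, per the file headers; its version and its handling of mismatches were not given in the sources used here. Submitters' processing notes name mm10. Per the file headers the deposited values are the percent of library reads of each mature miRNA, and each column adds up to 99.9%. The denominator thus holds hardly any reads outside the listed miRNAs, and shares of all sequenced reads cannot be given. Every one of the 628 values per library was a whole multiple of the smallest (tolerance 0.001 read), which was taken as 1 read. The denominators were 755193 reads (BM) and 790617 reads (ADM), 1 read being 1.32 and 1.26 RPM.

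Log2 ratios used a pseudocount of 1 RPM, which understates differences of low arms. Ratios of shares had none and carry 95% exact conditional (Clopper-Pearson) intervals, relative ratios exact conditional odds ratio intervals, and arm differences normal ones. Alternatives were other pseudocounts, minimums, thresholds, scalings and denominators, and the more abundant arm only. Python 3.11.15, scipy 1.17.1 and pandas 2.3.3 were used. The interval of ratios of shares and the direction of log2 ratios were tested on simulated Poisson counts, the kind of error that interval assumes. The intervals of relative ratios and of arm differences were not tested in this way.

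Members, lists and comparisons were chosen with earlier results of these data known. Full values were given by rule for arms of at least 100 RPM, the 5 lowest and 5 highest ratios and arms compared within a hairpin. A second deposited table, which repeats these values with derived columns, was not used.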

Additional observations from a re-analysis of the deposited data

How the results depend on the processing

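With 1 library per medium, counting error sets only a lower limit to the uncertainty, and at 15 and 7 reads a 2-fold difference (miR-377-5p) did not exceed it. No paired analysis was possible because each medium has 1 library and no replicate test exists. The count of 29 arms called (20.5% of all listed miRNAs being lower) was 21 with a pseudocount of 10 RPM (16.6%), and 36 without a level minimum (34 lower, against 25.2% of all, and 2 higher, miR-3072-3p and miR-541-3p with 0 BM reads). By construction it was 8 of 10 arms with a minimum of 100 RPM (16.5%) and 16 with a 3-fold threshold (10.4%). Trimmed mean of M values scaling, which shifts all log2 ratios by -0.10, gave 30 (23.4%), and median-of-ratios scaling 28 (19.6%), without miR-299a-5p. The median stayed between -1.55 and -1.05 under the 8 alternatives run; it was -1.05 with a pseudocount of 10 RPM. The median of the 12 arms from miR-543 to miR-382 was -0.94 with that pseudocount.

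The summed ratio of ADM to BM was 0.445 as reported, 0.414 with trimmed mean of M values scaling, 0.465 with median-of-ratios scaling, 0.462 with a denominator that leaves out the most abundant miRNAs (10 of each library), and 0.353 without miR-541-5p. With that denominator the shares were 5.27% in BM and 2.44% in ADM, and without miR-541-5p 1.16% and 0.409%. A gap between arms of at least 1 in log2 ratio was seen in 2 of 11 hairpins, 9 of 21 without a minimum, where single reads set the ratios, and 0 of 1 with a minimum of 100 RPM. The calls lost with a pseudocount of 10 RPM were those of miR-299a-5p, miR-329-3p, miR-369-3p, miR-376a-3p, both miR-377 arms, miR-496a-3p and miR-666-5p. No called arm changed direction under the 2 pseudocounts and 2 scalings run for single arms, but by construction none could. The same pseudocount in both libraries keeps the sign of a ratio. The scalings shift log2 ratios by only about -0.10 and 0.06. The other 26 of 39 alternatives stayed within their limits, a factor of 1.5 for counts the counting interval for shares and ratios, and that of the arm nearest the median for medians.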
